A study of Mus musculus with 12 samples.

Results

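The genes of the mitochondrial respiratory chain were compared among 4 mouse embryonic stem (ES) cell lines that differ in their Rex1 genotype. Members were taken by name: every probe of the array whose gene name starts with Nduf, Sdh, Uqcr, Atp5, or Cox followed by a digit, and those named Cycs or Cyc1. This gave 34 gene names, measured by 37 of the 20281 gene probes. The 2 probes named Sdh1 are described in the files as sorbitol dehydrogenase (current symbol Sord), an enzyme of polyol metabolism outside the chain, so the accounts by complex use the other 35 probes for 33 genes. Complex I had 12 probes, complex II 1, complex III 3, complex IV 9, the ATP synthase (complex V) 9, and the carrier cytochrome c 1. In complex III 1 probe is named Uqcrc1 but described in the files as another protein, and was kept. One of the complex I probes is for Ndufaf1, which helps to assemble the complex and is not a subunit of it.

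The respiratory chain sits in the inner mitochondrial membrane. Complexes I and II take electrons from NADH and from succinate and pass them through ubiquinone to complex III, cytochrome c carries them on to complex IV, where oxygen is reduced, and the proton gradient built along the way drives the ATP synthase. Most subunits are encoded in the nucleus and the rest in mitochondrial DNA, and mouse ES cells use both respiration and glycolysis.

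Each line was measured on 3 arrays of 2 colours, 12 in all. EB5 is a wild-type line. RKPG9 is 1 Rex1+/- clone, in which a puromycin-resistance and EGFP cassette replaces the start of the Rex1 (Zfp42) coding sequence, and HP3 and HP4 are Rex1-/- lines. The study made Rex1-/- lines in more than one way, by a high dose of puromycin on RKPG9 or with a second targeting vector and hygromycin, and which of these gave HP3 and HP4 is not stated in the sources used here. All lines grew without feeder cells in medium with LIF, serum and pyruvate. Cy3 always marked the line, Cy5 a universal mouse reference RNA pooled from cultured cell lines, and dyes were never swapped. A level below is the log2 ratio of the line to this reference at 1 probe, so that levels of different probes are not set against each other, and a change is the difference of 2 lines' levels. Whether a line's 3 arrays stand for 3 cultures is not stated in the labels, and the spread behind each p-value may be a technical one.

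The array files came from more than one session of spot extraction. The EB5 arrays were extracted in a session of their own with a global background adjustment switched on, and the arrays of the other 3 lines in another session with it off, so EB5 and its session cannot be told apart, whereas RKPG9, HP3 and HP4 can be compared within one session. The HP4 arrays were dimmer in Cy3, with a median raw intensity at the member spots of 1158 to 1538 against 2266 to 3746 on the other 9 arrays. All 444 member spots were well above background in both colours and none (0) was saturated. The scanner software marked 14 of them as outliers, 12 of these on EB5 arrays, and they were left out. EB5 thus has 1 usable array for Ndufa2, Ndufb9, Ndufc1 and Cox7a2 and 2 for Ndufa7, Cyc1, Cox8a and Atp5j. Of 8 ES cell markers 6 were on the array. Pou5f1, Esrrb and Nanog stood above the reference in all 4 lines, with line means of 4.12 to 4.43, 2.91 to 3.58 and 2.07 to 2.45. Zfp42 itself had 2 probes, of which only the brighter is given here. Its line means were 5.98 (EB5), 6.02 (RKPG9), 5.99 (HP3) and 5.44 (HP4). The KO lines still make a transcript of truncated Rex1 joined to the cassette, and the position of this probe relative to the replaced stretch is not given in the sources used here, so it does not check the genotype.

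Promoter windows are shown first because Rex1 resembles Yy1, a zinc finger factor known to bind near the start sites of many mitochondrial genes. RefSeq windows of 300 bases (GRCm38.p6, 250 before and 50 after the start) were held for 25 of the 33 genes, 27 windows in all. The letters AANATGGC, the core of the Yy1 site, or GCCATNTT on the other strand, were in 8 of the 27 windows and in 6.05% of all 32851 windows. The search was set up after the values below had been seen. The 4 genes shown first are those with a window among the 6 that were lower in HP4 than in every other line, and the others are the remaining 4 with a match. Each line gives 30 bases in the direction of the gene, 5′ to 3′, with the matching 8 bases in capitals.
Ndufs4, chr13:114388045-114388074, minus strand: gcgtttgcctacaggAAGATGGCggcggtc
Atp5f1, chr3:105959248-105959277, minus strand: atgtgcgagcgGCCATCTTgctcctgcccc
Atp5j, chr16:84835046-84835075, minus strand: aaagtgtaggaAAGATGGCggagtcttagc
Ndufa7, chr17:33824616-33824645, plus strand: ggagcggaaggAATATGGCgtccgctactc
Ndufc1, chr3:51408915-51408944, minus strand: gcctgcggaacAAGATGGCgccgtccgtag
Atp5j2, chr5:145191500-145191529, minus strand: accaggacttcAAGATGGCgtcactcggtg
Atp5b, chr10:128083313-128083342, plus strand: acccggattccGCCATGTTgagtcttgtgg
Cox7b, chrX:106015720-106015749, plus strand: ggctccctgctgaaaGCCATTTTgtttttc

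The match began 36 bases after the start in Ndufs4 and 18 bases before it in Ndufa7. Among the genes with a window, all 4 that were lower in HP4 than in every other line held the letters, and 4 of the other 21 did. These groups were formed from the HP4 calls themselves after the values had been seen, so the split is not a test. A link between the letters, Rex1 and the levels was not tested. A match is a run of letters and no evidence of binding. For comparison, the letters CCGGAAGT of the GABPA site were in 1 of 27 member windows (Cox8a) and 3.89% of all windows. The letters GCGCATGC of the NRF1 site, or GCATGCGC, were in 5 of 27 (Atp5g2, Atp5l, Cox6a1, Cycs and Uqcrc1) and 2.71% of all, and in Atp5g2, Cox6a1 and Uqcrc1 both strands matched at overlapping places.

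Across the 4 lines the member levels moved little. No member changed by more than 2-fold in any of the 6 comparisons. Of the 35 probes, 5 passed the test in no comparison, and the 103 changes that passed had a median size of 0.20 on the log2 scale and ran from 1.07-fold to 1.68-fold. The mean level was highest in EB5 for 28 probes, in RKPG9 for 4, in HP4 for 2 and in HP3 for 1. It was lowest in HP4 for 21, in RKPG9 for 10 and in HP3 and EB5 for 2 each. The shares of all probes highest or lowest in each line are not given here, and EB5 cannot be told apart from its extraction session. The median SD between the arrays of a line was 0.02 in RKPG9, 0.03 in HP3, 0.04 in EB5 and 0.05 in HP4. In bulk RNA, fewer cells of a kind and less RNA per cell cannot be told apart.

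**Figure D1:**
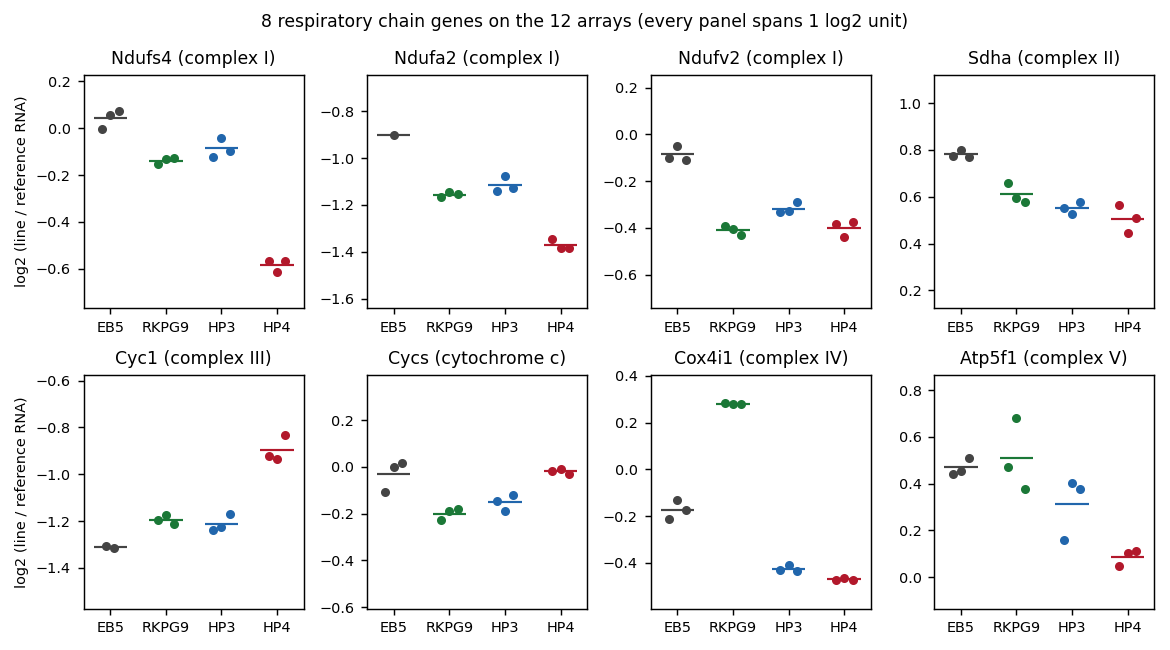
Level of 8 respiratory chain genes on each of the 12 arrays. Each point is 1 array, the bar is the mean of the line's usable arrays, the y axis is log2 of line over reference RNA, and each panel spans 1 log2 unit. Cox4i1 stood at 0.28 on all 3 RKPG9 arrays and Ndufs4 between -0.57 and -0.61 on the HP4 arrays.

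The widest shift of a member was at Cox4i1 (Cox4a in the files), the nuclear-encoded subunit 4 of cytochrome c oxidase. The EB5 arrays read -0.21, -0.13 and -0.17, those of RKPG9 0.28, 0.28 and 0.28, those of HP3 -0.43, -0.41 and -0.43, and those of HP4 -0.47, -0.46 and -0.47. Every RKPG9 array lay above all arrays of the other lines. Of all probes, 39.8% to 51.2% had no overlap between RKPG9 and a single other line. The share for 1 line apart from all others is not given here. Against RKPG9, Cox4i1 fell by 0.71 ± 0.03 (SE) on the log2 scale in HP3, to 1.63-fold lower (limma, adjusted p = 2.8e-08). In HP4 it fell by 0.75 ± 0.03, to 1.68-fold lower (adjusted p = 1.1e-08). Against EB5 it rose by 0.45 ± 0.03 in RKPG9 (adjusted p = 4.1e-07). These 3 changes passed under each of 17 other ways to process or subset the arrays, among them Aquantile scaling, which leaves the ratios unchanged. In RKPG9 against EB5 both channels were higher, Cy3 by 0.74 and the reference by 0.29. The Cy3 channel alone, which carries the line's RNA, gave -0.72 for HP3 and -0.77 for HP4 against RKPG9. Single channels, here and below, were taken after loess and Aquantile scaling, which draw on both dyes. They are thus not separate readings of the line and of the reference. HP3 and HP4 were also lower than EB5, by 0.25 and 0.30 (adjusted p = 7.4e-05 and 1.6e-05), but in Cy3 alone these changes were 0.02 and -0.03, while the reference channel was higher by 0.27 in both.

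The widest shift in HP4 alone was at Ndufs4, an accessory subunit of complex I that is needed for the stable complex and is mutated in Leigh syndrome. Levels were -0.01, 0.06 and 0.07 in EB5, -0.15, -0.13 and -0.13 for RKPG9, -0.12, -0.04 and -0.10 for HP3, and -0.57, -0.61 and -0.57 for HP4. The HP4 arrays lay apart below the other 9. Of all probes, 42.8% to 53.4% had no overlap between HP4 and a single other line. Ndufs4 fell by 0.62 ± 0.03 in HP4 against EB5, 0.44 against RKPG9 and 0.50 against HP3 (limma, adjusted p = 2e-07, 1.4e-06 and 7.6e-06), and all 3 falls passed in each of the 17 alternatives. In Cy3 alone they were -0.77, -0.73 and -0.90. HP3, which is also Rex1-/-, differed from RKPG9 by 0.05 (95% interval -0.02 to 0.13, adjusted p = 0.33).

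Besides Ndufs4, the members lower in HP4 than in each of the other 3 lines included Ndufa2 and Ndufa7, accessory subunits of complex I, and Atp5f1 and Atp5j, which encode subunits b and F6 of the stalk that holds the ATP synthase head in place. Atp5f1 read 0.05, 0.10 and 0.11 on the HP4 arrays, 0.47, 0.68 and 0.38 on the RKPG9 arrays and 0.16, 0.40 and 0.38 on the HP3 arrays. It fell by 0.42 ± 0.08 in HP4 against RKPG9 (limma, adjusted p = 0.0011) and by 0.22 against HP3 (adjusted p = 0.048). With median centring the changes were 0.04 and 0.16, and the second passed in 6 of its 17 alternatives. Atp5f1 also had the widest spread between arrays in RKPG9 and HP3, with SDs of 0.16 and 0.13, and was dim, at 60 to 106 units of background-subtracted Cy3 intensity over the 12 arrays. Ndufa2 read -1.34, -1.38 and -1.38 on the HP4 arrays against -1.17, -1.14 and -1.15 on the RKPG9 arrays and -1.14, -1.08 and -1.13 on the HP3 arrays. It fell by 0.21 and 0.26 in HP4 against these 2 lines (adjusted p = 0.00056 and 0.00054). Between HP4 and HP3 the Cy3 channel alone gave -0.00 for Ndufa2, and the reference channel 0.26. Ndufa7 fell by 0.19 in HP4 against RKPG9, but gave 0.03 in Cy3 alone, and Atp5j, which fell by 0.23, gave -0.10. None (0) of the 6 members of this pattern passed in HP3 against RKPG9 in limma. The comparisons behind the pattern share the HP4 arrays, and the share of all probes with it is not given here.

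Comparisons within one extraction session came next, beginning with HP3 against RKPG9, a Rex1-/- line against a Rex1+/- line. Of the 37 probes 4 were higher and 8 lower at an adjusted p under 0.05, where 12.6% of all probes tested were higher and 10.1% lower. The 2 Sdh1 probes were among the higher, so 2 of 35 respiratory chain probes rose, 8 fell and 25 did not pass, with a median change of -0.02 beside 0.00 for all probes. In complex I Ndufs1 and Ndufv1, core subunits of its NADH-oxidizing arm, rose by 0.12 ± 0.03 and 0.14 ± 0.03, though Ndufv1 gave -0.02 in Cy3 alone and Ndufs1 passed in 8 of its 17 alternatives. Ndufs5 and Ndufaf1 fell by 0.18 and 0.10, while Cy3 alone gave -0.05 (not passed) and -0.41. In complex IV 4 of 9 probes fell, for Cox4i1, Cox5a (both probes, by 0.18 and 0.20) and Cox7a2 (by 0.16). In the ATP synthase Atp5g3, 1 of the genes for the proton-carrying ring subunit c, fell by 0.20 ± 0.04 and Atp5j2 by 0.20 ± 0.03, with -0.21 and -0.06 in Cy3 alone, neither of which passed. No probe of complexes II and III, nor cytochrome c, passed. Cox4i1 and 1 of the Cox5a probes (change of -0.18) passed in all 17 alternatives.

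HP4 against RKPG9 gave 6 higher and 15 lower of 37, beside 20.9% higher and 19.1% lower among all probes. Without Sdh1 there were 5 higher and 15 lower of 35, with a median change of -0.08 beside 0.01 for all probes. Complex I had 7 of 12 lower and 1 higher, with a median of -0.14. Ndufs1 rose by 0.11 ± 0.03 but read -0.44 with median centring, while Ndufa4, long counted with complex I and later placed in complex IV, fell by 0.14. Sdha, the flavoprotein of succinate dehydrogenase, fell by 0.10 ± 0.04 (limma, adjusted p = 0.043), but gave 0.10 in Cy3 alone. In complex IV the same 4 probes as in HP3 fell, Cox5a by 0.23 and 0.28 and Cox7a2 by 0.27. In the ATP synthase Atp5a1 and Atp5b, the alpha and beta subunits of its catalytic head, rose by 0.21 ± 0.04 and 0.12 ± 0.04 (adjusted p = 0.00082 and 0.038), while Atp5f1, Atp5j and Atp5j2 fell by 0.42, 0.23 and 0.26. Atp5o, which links the head to the stalk, differed by -0.03 (adjusted p = 0.55). With median centring in place of loess both rises turned, to -0.43 and -0.65, and in Cy3 alone they were 0.12 and 0.09 and did not pass. The rise of Atp5b passed in 7 of its 17 alternatives.

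Besides Ndufs1, Atp5a1 and Atp5b, the respiratory chain members that rose in HP4 against RKPG9 were Cyc1 and Cycs. Cyc1 encodes cytochrome c1, the subunit of complex III that hands electrons to cytochrome c. It read -0.92, -0.93 and -0.83 on the HP4 arrays, while RKPG9 gave -1.20, -1.17 and -1.21, HP3 gave -1.24, -1.23 and -1.17, and the 2 usable EB5 arrays -1.31 and -1.32. All HP4 arrays were above all others, where 42.8% to 53.4% of all probes had no overlap between HP4 and a single other line. Cyc1 rose by 0.30 ± 0.04 against RKPG9, 0.32 ± 0.04 against HP3 and 0.42 ± 0.04 against EB5 (limma, adjusted p = 9.5e-05, 0.00023 and 2.5e-05), but in Cy3 alone the changes were 0.11, 0.09 and -0.00 and did not pass, with the reference channel lower by 0.19, 0.23 and 0.42, and with median centring all 3 turned negative (-0.48, -0.29 and -0.48). Cycs, cytochrome c itself, read -0.02, -0.01 and -0.03 in HP4 and -0.23, -0.19 and -0.18 in RKPG9. It rose by 0.18 ± 0.04 against RKPG9 and by 0.13 against HP3 (adjusted p = 0.0027 and 0.023), and turned to -0.42 and -0.35 with median centring. In Cy3 alone its changes were 0.02 and 0.10, and against EB5 it differed by 0.01 (adjusted p = 0.83).

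HP4 against HP3 compares lines of the same Rex1-/- genotype. Of 37 probes 4 were higher and 10 lower, beside 13.7% and 14.7% of all probes, and of the 35 there were 4 higher, 9 lower and 22 not passed, with a median of -0.06. Complex I had 6 of 12 lower and none (0) higher in limma, with 8 of the 12 at an unadjusted p under 0.05. The share of all probes at that unadjusted threshold is not given here, and 28.4% passed the adjusted one in either direction. In complex IV only Cox6a1 fell, by 0.17 ± 0.05. In the ATP synthase Atp5a1 and Atp5g3 rose by 0.15 and 0.13 (-0.38 and -0.54 with median centring), while Atp5f1 and Atp5j fell by 0.22 and 0.19. The lower count was 6 without the third HP3 array or without the third HP4 array, and 6 when only these 2 lines were in the fit. The higher count was 2 without the second HP3 array or the first or second HP4 array.

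**Figure D2:**
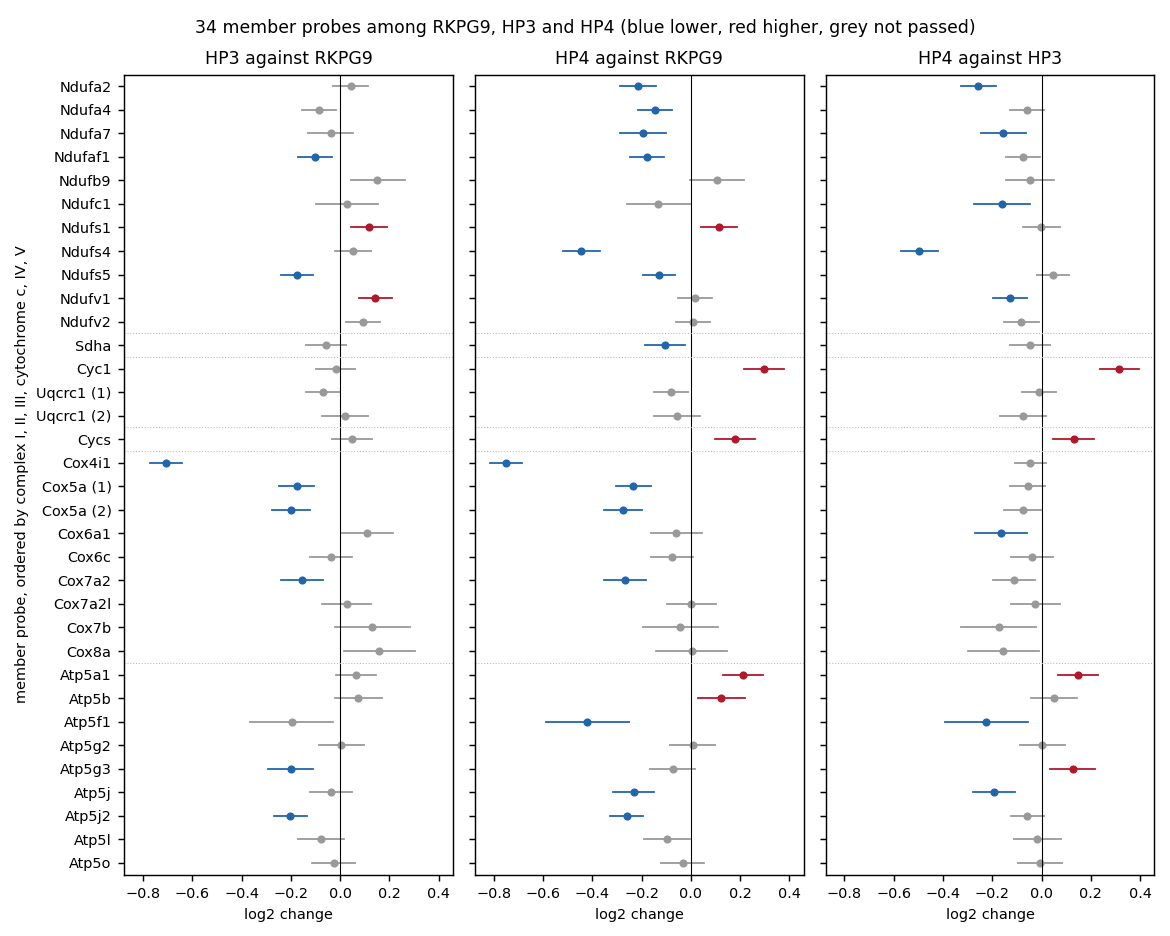
Log2 change of 34 member probes in HP3 against RKPG9, HP4 against RKPG9 and HP4 against HP3, 1 row per probe in the order of the complexes. Points are limma estimates from 3 arrays per line, or fewer where a spot was left out, lines their 95% intervals, blue lower, red higher and grey not passed at an adjusted p of 0.05. Cox4i1 was at -0.71 and -0.75 against RKPG9, and Ndufs4 at -0.44 and -0.50 in HP4.

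Against wild-type EB5, 8 members were lower in all 3 other lines. These comparisons share the EB5 arrays, and the share of all probes lower in all 3 is not given here. RKPG9 had 2 of 37 higher and 13 lower, where 12.5% of all probes were higher and 21.6% lower, and the median of the 35 was -0.10 beside -0.02 for all probes. HP3 had 3 higher and 19 lower, beside 11.4% and 19.1%, with a median of -0.12. HP4 had 2 higher and 25 lower, beside 18.4% and 26.4%, with a median of -0.19. Complex I had 8 of 12 lower in RKPG9, 8 in HP3 and 11 in HP4, and none (0) higher in any of the 3 in limma, with 10, 10 and 11 of the 12 at an unadjusted p under 0.05. The complex I medians were -0.18, -0.15 and -0.26. These 8 included Ndufs4, Ndufa2, Ndufa7 and Ndufv2 of complex I, Sdha, and Atp5b and Atp5o of the ATP synthase. Complex IV had 0 of 9 lower in RKPG9, 4 in HP3 and 5 in HP4, with 3, 5 and 5 at an unadjusted p under 0.05. The share of all probes at an unadjusted p under 0.05 is not given here. Even at the adjusted threshold 34.1%, 30.5% and 44.8% of all probes passed in either direction in RKPG9, HP3 and HP4. Among the brightest 454 to 455 other probes, those at least as bright as the median member, 41.1% were lower in RKPG9, 28.4% in HP3 and 34.5% in HP4.

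Ndufv2, a core subunit of the NADH-oxidizing arm of complex I, read -0.10, -0.05 and -0.11 on the EB5 arrays. The other lines gave -0.39, -0.41 and -0.43 (RKPG9), -0.33, -0.33 and -0.29 (HP3) and -0.38, -0.44 and -0.38 (HP4). The EB5 arrays lay above the other 9, where 46.1% to 53.4% of all probes had no overlap between EB5 and a single other line. Ndufv2 fell by 0.32 ± 0.03, 0.23 ± 0.03 and 0.31 ± 0.03 in RKPG9, HP3 and HP4 (limma, adjusted p = 1.2e-05, 0.00025 and 1.9e-05). It passed in all 17 alternatives in each comparison, and gave -0.28, -0.37 and -0.42 in Cy3 alone. Sdha read 0.77, 0.80 and 0.77 in EB5 and between 0.45 and 0.66 on the other 9 arrays. It fell by 0.17, 0.23 and 0.28 in RKPG9, HP3 and HP4. In Cy3 alone, however, its changes were 0.03, 0.11 and 0.13, and the reference channel was higher by 0.20, 0.34 and 0.41. The catalytic subunits Atp5b and Atp5a1 fell by 0.28 ± 0.04 and 0.26 ± 0.04 in RKPG9 (adjusted p = 0.00029 and 0.00024), and both passed there in all 17 alternatives. Cox7b, 1 of the small subunits of complex IV, rose by 0.24 ± 0.07 in HP3 (adjusted p = 0.02) and was the one respiratory chain probe to do so there, but gave -0.09 in Cy3 alone.

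**Figure D3:**
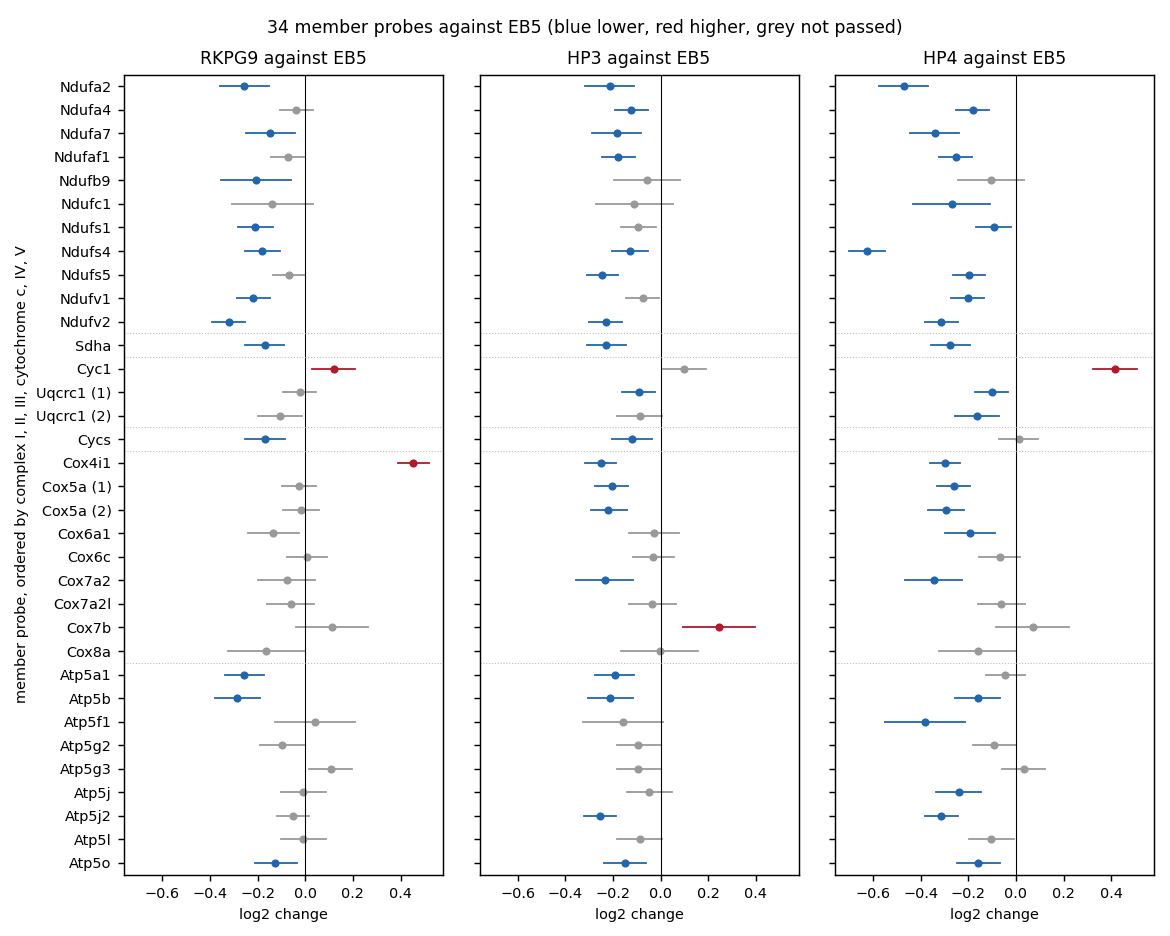
Log2 change of 34 member probes in RKPG9, HP3 and HP4 against EB5, drawn as in the plot of the comparisons within a session. Blue points, lower than EB5, number 12, 18 and 23, and red points, higher, 2, 1 and 1. The EB5 arrays were extracted in another session, and the EB5 mean rests on 1 array for Ndufa2, Ndufb9, Ndufc1 and Cox7a2.

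The reference RNA is the same on every array, so a pure reading of it should not follow the lines. The scaled Cy5 channel is not a pure reading, since its scaling draws on both dyes. After loess and Aquantile scaling, Cy5 alone passed the test at 30.7% of all probes between RKPG9 and EB5, 34.1% between HP3 and EB5 and 42.3% between HP4 and EB5. Among RKPG9, HP3 and HP4 it passed at 0%, 0.178% and 0% of probes. For the 35 members it was higher at 3, 7 and 6 probes and lower at 1, 0 and 4 in the 3 comparisons with EB5, and passed at 0 of 35 in each of the others, although single members still differed there by -0.40 to 0.26. The lines' own channel, Cy3 alone, passed lower at 4, 2 and 13 of the 35 in RKPG9, HP3 and HP4 against EB5, beside 14.2%, 13.5% and 19.1% of all probes. In HP3 and HP4 against RKPG9 and in HP4 against HP3 it passed lower at 4, 9 and 3, beside 4.25%, 9.21% and 3.47%. It passed higher at 2 probes in RKPG9 against EB5, beside 12.8%, and at 0 in the rest, beside 3.12% to 18.6%. The part of the session in the changes against EB5 was not tested.

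**Figure D4:**
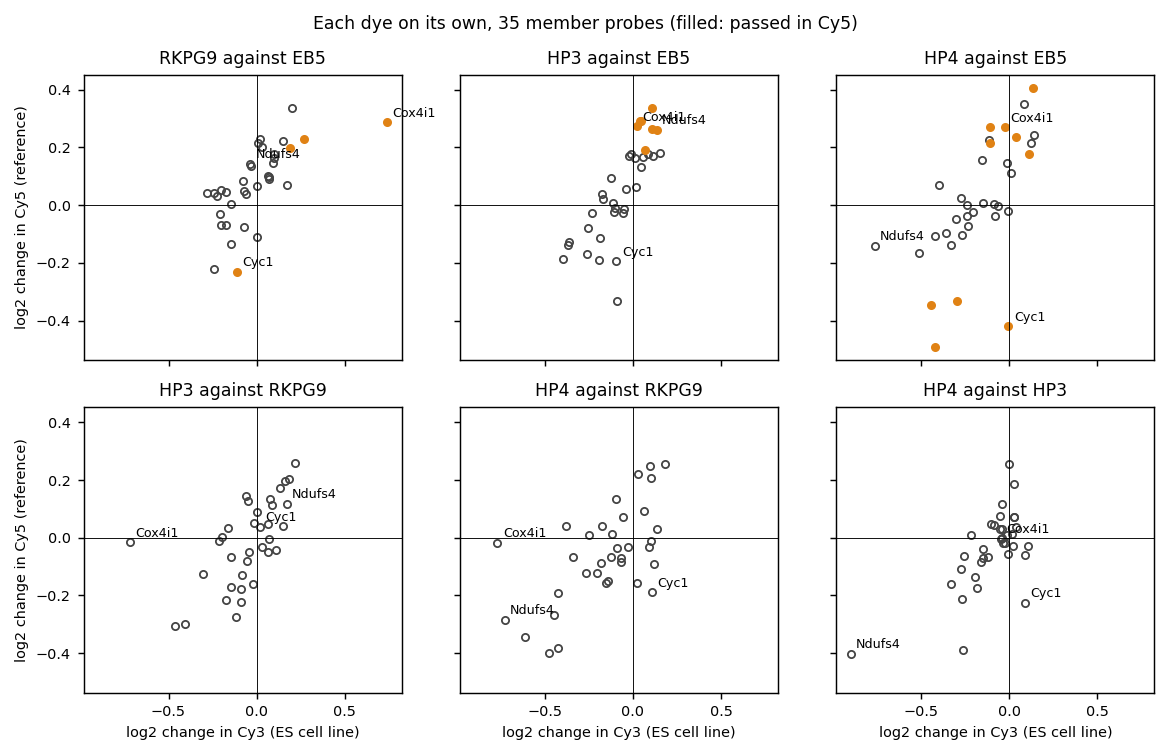
Log2 change of each of the 35 member probes in the Cy3 channel (ES cell line, x axis) and the Cy5 channel (reference RNA, y axis), 1 panel per comparison. Filled orange points passed the test in Cy5, which 4, 7 and 10 members did against EB5 and 0 did among RKPG9, HP3 and HP4. Cox4i1 and Ndufs4 lay far out on the Cy3 axis in the comparisons where they changed most.

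Loess evens out each array's ratios along brightness, and with plain median centring instead, nearly all members were lower in HP4. The counts were 33 of 35 against EB5, 33 against RKPG9 and 34 against HP3, with medians of -0.92, -0.77 and -0.60. Under that scaling the bright probes outside the chain did the same, with 96%, 93.1% and 94.2% lower and medians of -0.82, -0.67 and -0.56. The HP4 arrays are the dim ones in Cy3, and the part of their dimness in this shift was not tested. The direction of single small changes in HP4 therefore holds for the loess scale, and Ndufs4, Cox5a, Cox7a2, Ndufa4, Ndufaf1 and Cox4i1 were lower than RKPG9 under every alternative.

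The 5 members that passed in no comparison were Atp5g2, Atp5l, Cox6c, Cox7a2l and Cox8a. Atp5l encodes subunit g of the ATP synthase, Cox6c and Cox8a small subunits of complex IV, and Cox7a2l a factor that joins complexes III and IV. Cox6c read -0.58 to -0.45 in EB5, -0.53 to -0.51 in RKPG9, -0.59 to -0.53 in HP3 and -0.62 to -0.54 in HP4. Its changes ran from -0.08 to 0.01, and the interval was -0.16 to 0.01 for the widest, HP4 against RKPG9. Cox8a varied more, with changes of up to 0.16 in size and, for HP3 against RKPG9, an interval of 0.01 to 0.30 (adjusted p = 0.12).

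Genes with more than 1 probe gave a check on single values. The Cox5a probes moved alike. For subunit 5A of cytochrome c oxidase, one probe read 0.63, 0.68 and 0.68 in EB5, 0.60, 0.65 and 0.67 for RKPG9, 0.45, 0.44 and 0.48 for HP3, and 0.40, 0.42 and 0.38 for HP4. The other read 0.66, 0.76 and 0.70, then 0.63, 0.71 and 0.72, then 0.48, 0.49 and 0.49, and last 0.41, 0.42 and 0.40, in the same order of lines. At both probes all Rex1-/- arrays lay below all EB5 and RKPG9 arrays. Of all probes, 39.8% to 53.4% had no overlap between 1 of these Rex1-/- lines and EB5 or RKPG9. The share for all 4 lines at once is not given here. In Cy3 alone the changes against RKPG9 were -0.30 and -0.20 for HP3 and -0.43 and -0.34 for HP4, and the -0.20 did not pass. Of the 2 Uqcrc1 probes, for a core protein of complex III, one is described in the files as GRIP associated protein 1, a different protein. It changed by -0.10 in HP4 against EB5 and the probe described as Uqcrc1 by -0.16, and both passed. The Sdh1 probes, outside the chain, did not move alike, since HP4 against EB5 was -0.22 at one and 0.14 at the other and both passed. Atp5g2 and Atp5g3, which encode identical mature ring subunits, changed by 0.00 and -0.20 in HP3 against RKPG9.

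Other mitochondrial and energy genes were read from lists of the pathway. Of 17 enzymes of the tricarboxylic acid cycle and pyruvate dehydrogenase measured, 10 were lower in RKPG9, 12 in HP3 and 12 in HP4 against EB5, where 21.6%, 19.1% and 26.4% of all probes were lower, and 0, 0 and 1 were higher. Idh2, the mitochondrial isocitrate dehydrogenase that makes NADPH, fell by 0.59, 0.34 and 0.65. Cy3 alone gave 1, 3 and 4 lower against EB5, where 14.2%, 13.5% and 19.1% of all probes were lower. Within the session 2 of the 17 were lower and 1 higher in HP3 against RKPG9, beside 10.1% and 12.6% of all probes. In HP4 against RKPG9 5 were lower and 2 higher, beside 19.1% and 20.9%. Pdha1, a subunit of pyruvate dehydrogenase, fell by 0.14 in HP3 and 0.31 in HP4. Among the mitochondrial ribosomal proteins measured, 21 of 43 were lower in RKPG9, 21 in HP3 and 22 in HP4 against EB5, beside the same shares of all probes, with 5, 1 and 4 higher. Against RKPG9 5 of 47 were lower and 11 higher in HP3, beside 10.1% and 12.6% of all probes, and 12 lower and 14 higher in HP4, beside 19.1% and 20.9%, where median centring gave 47 of 47 lower. In Cy3 alone 3, 3 and 6 of the 43 were lower than EB5, beside 14.2%, 13.5% and 19.1% of all probes. There 3, 6 and 9 were higher, beside 12.8%, 13.6% and 18.6%.

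Of 19 assembly factors and regulators of mitochondrial gene expression, 4, 5 and 8 were lower than EB5 in RKPG9, HP3 and HP4, beside 21.6%, 19.1% and 26.4% of all probes, and 3, 2 and 3 were higher. In Cy3 alone 1, 1 and 2 were lower, beside 14.2%, 13.5% and 19.1% of all probes. There 3, 4 and 3 were higher, beside 12.8%, 13.6% and 18.6%, and the medians were 0.12, 0.06 and 0.15. Tmem70, which helps to assemble the ATP synthase, fell by 0.65, 0.50 and 0.51, and Surf1, an assembly factor of complex IV, fell by 0.42 ± 0.03 in HP4 against RKPG9 (limma, adjusted p = 2.3e-06). Among 9 carriers and channels measured, Vdac3, a channel of the outer membrane, was highest in RKPG9 and fell by 0.71 in HP3 and 0.68 in HP4 against it (adjusted p = 4.2e-07 and 4e-07). Only 2 genes encoded in mitochondrial DNA were on the array. mt-Cytb rose by 0.18 in HP3 and 0.19 in HP4 against RKPG9 (limma, adjusted p = 0.033 and 0.011), but gave -0.04 and -0.05 in Cy3 alone, and -0.45 in HP4 with median centring, while mt-Nd3 differed by 0.09 and 0.28 and did not pass (adjusted p = 0.62 and 0.064).

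Of 13 glycolysis genes measured, 6 were higher and 1 lower in HP4 against RKPG9, beside 20.9% and 19.1% of all probes. Their median was 0.18 beside 0.01 for all probes. Cy3 alone gave the same counts, beside 11% and 9.21%, but with median centring 1 was higher and 8 were lower, beside 38.8% and 37.9%. Against HP3 7 were higher and 1 lower in HP4, beside 13.7% and 14.7% of all probes. There Cy3 alone gave 0 and 1, beside 3.12% and 3.47%, and median centring 0 and 10, beside 34.1% and 36.4%. Slc2a1, the glucose transporter, rose by 0.71 ± 0.03 and Gpi1, glucose phosphate isomerase, by 0.59 ± 0.04 in HP4 against RKPG9 (limma, adjusted p = 2.9e-08 and 4.3e-07), while median centring gave 0.05 and -0.18. In HP3 against RKPG9 4 of the 13 were higher and 3 lower, beside 12.6% and 10.1% of all probes. Markers moved with HP4 as well. All 4 fibroblast markers measured of 8 (Col1a2, Dcn, Pdgfrb and Vim) were higher in HP4 than in RKPG9 and HP3, beside 20.9% and 13.7% of all probes. Their line means were -5.04 to -2.06 against the reference, which itself contains fibroblast RNA. In HP4 against EB5 1 was higher and 1 lower, beside 18.4% and 26.4% of all probes. In Cy3 alone 3 of the 4 were higher in HP4 than in RKPG9, beside 11%, and 1 with median centring, beside 38.8%. Of the 6 ES cell markers 4 (Esrrb, Nanog, Pou5f1 and Zfp42 itself) were lower in HP4 than in RKPG9 and than in HP3, beside 19.1% and 14.7% of all probes. Esrrb fell by 0.67 and 0.55, while Utf1 was higher than in RKPG9 by 0.27 (limma, adjusted p = 0.0007) but read -0.31 with median centring. In Cy3 alone 3 and 2 of the 6 were lower, beside 9.21% and 3.47%, and 1 and 0 higher, beside 11% and 3.12%. In the ratios of HP4 against EB5 1 was higher (Utf1) and 1 lower (Zfp42), beside 18.4% and 26.4% of all probes. Esrrb, Nanog and Pou5f1 did not pass there. For HP4 against EB5 Cy3 alone gave 2 higher and 4 lower, beside 18.6% and 19.1%, and median centring 0 and 5, beside 36.5% and 43%. Of 7 endoderm and mesoderm markers 1 was higher (Gata6, by 0.66) and 2 were lower in HP4 against RKPG9, beside 20.9% and 19.1% of all probes. Foxa2, well above background on only 3 arrays, had line means of -0.17, 0.56, -0.37 and -0.30 in the order EB5, RKPG9, HP3, HP4, and was thus highest in the same line as Cox4i1. The part of these markers in the member changes was not tested.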

How the data were processed

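For each spot and dye the authors deposited a mean intensity and the median intensity of the surrounding background, not yet subtracted, as Agilent Feature Extraction 7.5.1 wrote them. The deposited log10 ratio of each spot and the authors' table of levels, also on a log10 scale, served for checks and as an alternative. Between 93.8% and 95.9% of the table's values lay within 0.01 of minus the ratio plus a constant per probe, so that a higher value means more RNA in the line, and column medians were 2.87 to 2.88.

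Background was corrected by normexp (offset 50) and each array normalized by loess, with control and outlier spots at weight 0 (1978 outlier gene spots left out), and averaged per probe. From the intensities deposited, log2 ratios (Cy3 over Cy5) were taken and all 12 arrays fitted with limma 3.58.1 under R 4.3.3 (with the data.table package, 1.17.8), with 8 residual and 3.42 prior degrees of freedom and 6 comparisons. A probe passed at a Benjamini-Hochberg adjusted p under 0.05 over all probes, and every adjusted p is from this model. Precision is limited by how few arrays there are. The study's further threshold of 2-fold was passed by no member. The fit was tested on simulated data. The promoter windows were searched with Python 3.11.15 and pandas 2.3.3, and plots drawn with matplotlib 3.10.9 and numpy 2.4.6.

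Named in the text are the 4 largest rises and 4 largest falls of each comparison among members that passed without overlap between arrays, core subunits and isoforms, members with several probes, and up to 2 genes per pathway list with the largest change. Not all of them are given, and 1 member, kept in all counts, is not reported by name here. Pathway lists use the brightest probe of a gene. The members, the lists and this rule were chosen with earlier results of these data known. Alternatives were an offset of 0, no background subtraction, processed signals, median centring, Aquantile, keeping outlier spots, Cy3 alone, only the lines compared, a filter on dim probes, the table of the authors, the replicate number as a block, a single value per gene, and each array left out. Aquantile does not change the ratios, and the dim filter does not change the members' values. The Cy5 channel, the bright probes and the promoters were looked at after the values were seen. Promoter sequences and their coordinates came from a RefSeq table of GRCm38.p6.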

Additional observations from a re-analysis of the deposited data

Results flagged for a closer look

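HP4 and HP3 share their Rex1-/- genotype, and at 14 of the 37 probes their changes against EB5 differed, by the test of HP4 against HP3 within one session. For 13 of them, the change of HP4 minus that of HP3 was -0.50 for Ndufs4, -0.26 for Ndufa2, -0.22 for Atp5f1, -0.19 for Atp5j, -0.17 for Cox6a1, -0.16 for Ndufc1, -0.16 for Ndufa7 and -0.13 for Ndufv1 on the log2 scale. It was 0.32 for Cyc1, 0.15 for Atp5a1, 0.13 for Cycs and 0.13 for Atp5g3, and -0.44 at the first Sdh1 probe (sorbitol dehydrogenase). The share of probes called lower or higher in this comparison was 14.7% and 13.7% over the array. With 3 arrays per line, single arrays were not tested as outliers.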

How the results depend on the processing

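Median centring and Cy3 alone moved the results most. Of 43 named changes all kept their direction and call with Aquantile and with the dim filter. Aquantile leaves the ratios unchanged and the dim filter keeps the values of every member, so neither is a separate check of these changes. Direction and call were kept by 24 with median centring (8 weaker, 11 of opposite sign) and 18 in Cy3 alone (17 weaker, 8 of opposite sign). Under the other settings, outside those that leave out an array, 38 to 42 kept them. The cause of these moves was not tested. With median centring the changes of opposite sign were, in HP4 against EB5, -0.48 for Cyc1 and -0.11 for Sdh1 (A_65_P06856), against RKPG9 -0.43 for Atp5a1, -0.48 for Cyc1, -0.42 for Cycs and 0.04 for Atp5f1, and against HP3 -0.38 for Atp5a1, -0.54 for Atp5g3, -0.29 for Cyc1, -0.35 for Cycs and 0.16 for Atp5f1. In Cy3 alone they were -0.11 for Cyc1 in RKPG9 against EB5, -0.089 for Cox7b, 0.037 for Atp5j2, 0.021 for Cox4i1 and 0.047 for Ndufs5 in HP3 against EB5, -0.005 for Cyc1 in HP4 against EB5, -0.018 for Ndufv1 in HP3 against RKPG9 and -0.26 for Atp5g3 in HP4 against HP3. With 1 value per gene Sdh1 was -0.04 in HP4 against EB5.

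Counts over the 37 probes also moved by more than 1.5 times. In RKPG9 against EB5 the 2 higher became 5 without background subtraction, with processed signals or in the authors' table, and 1 with median centring or outlier spots kept, and the 13 lower became 4 in Cy3 alone. In HP3 against EB5 the 3 higher became 1 and the 19 lower 32 with median centring, and the lower 2 in Cy3 alone. In HP4 against EB5 the 2 higher became 1 with an offset of 0, processed signals, Cy3 alone, the authors' table, the replicate block, only the 2 lines or 1 value per gene, and 0 with median centring, and the 25 lower became 13 in Cy3 alone. In HP3 against RKPG9 the 4 higher became 1 with median centring or Cy3 alone, and the 8 lower became 13 without background subtraction and 4 in Cy3 alone. In HP4 against RKPG9 the 6 higher became 0 with median centring or Cy3 alone, and the 15 lower became 23 with processed signals, 34 with median centring, 9 in Cy3 alone and 24 in the authors' table. In HP4 against HP3 the 4 higher became 0 with median centring or Cy3 alone, and the 10 lower became 17 without background subtraction, 35 with median centring, 4 in Cy3 alone, 16 in the authors' table and 6 with only the 2 lines.

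Leaving out each array in turn gave 1 to 2 higher and 11 to 13 lower in RKPG9 against EB5, 1 to 3 and 15 to 18 in HP3 against EB5, 1 to 2 and 21 to 28 in HP4 against EB5, 2 to 4 and 6 to 8 in HP3 against RKPG9, 4 to 5 and 14 to 17 in HP4 against RKPG9, and 2 to 4 and 6 to 10 in HP4 against HP3. The higher counts fell to 1 in RKPG9 against EB5 without any array of these lines but EB5 array 2, in HP3 against EB5 without EB5 array 3 or HP3 array 1, and in HP4 against EB5 without array 2 or 3 of either line, and to 2 in HP3 against RKPG9 without RKPG9 array 1 or 2 or HP3 array 1. Same-numbered arrays of different lines did not deviate together (correlations of -0.18 to 0.20), so the numbers do not pair them. All member spots were well above background. With the replicate block the counts were 2 higher and 12 lower, 3 and 18, and 1 and 25 against EB5, 4 and 8 and then 6 and 15 for HP3 and HP4 against RKPG9, and 3 and 9 for HP4 against HP3.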
